A study of Ovis aries with 95 samples.

Results

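Gene expression in the hypothalamus and the cerebral cortex of sheep (Ovis aries) fetuses was compared in the age group labelled 145 days of gestation, close to term, for which the study's methods give a range of days just short of that age. The comparison holds the 8 arrays that the labels place at that age in these regions, 4 of hypothalamus and 4 of cortex, out of 95 arrays in the series, and it was made across all gene probes after all 95 arrays were normalized together. The labels name no treatment, and each array measured total RNA of 1 region of 1 fetus, labelled with the dye Cy3 and hybridized to an ovine Agilent array. The same regions were also collected at 80, 100, 120 and 130 days and from newborn lambs, with brainstem and hippocampus beside them. The question addressed is which genes differ between a region that governs hormones and homeostasis and a region of sensory and cognitive function shortly before birth. According to the study's methods the cortex was frontal cortex, and the regions were dissected from the same brains, with a set of twins in each age group. The regions thus share animals, but the labels do not mark which arrays come from 1 fetus or from twins, and the arrays were treated as independent samples.

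The hypothalamus lies at the base of the brain and regulates the pituitary gland, feeding, water balance, reproduction and the response to stress. Its nuclei hold small groups of neurons that each make 1 or a few neuropeptides, which are cut from larger precursors and released either into the blood or onto other neurons. The cortex is built mainly of glutamatergic projection neurons and of inhibitory interneurons, many of which make somatostatin or neuropeptide Y. Steroid and thyroid hormone receptors of the hypothalamus carry the feedback of the gonads, the adrenal and the thyroid.

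The values are log2 intensities, so a difference of 1 is a 2-fold difference, and differences are given as hypothalamus minus cortex with the standard error of limma's fit (n = 4 and 4). Of the gene spots, 75.9% to 84.0% were well above background on these 8 arrays. No slide and no scan day of the series held both regions: the 4 cortex arrays lay on 3 slides and the 4 hypothalamus arrays on 3 others, so region and slide cannot be told apart. Arrays of cortex correlated with each other at a mean r of 0.988 to 0.989 across genes, while hypothalamus replicates 1 to 4 correlated with the rest of their group at 0.943, 0.959, 0.968 and 0.969. Hypothalamus replicates 1 and 2 also had 132 and 157 outlier spots, against 4 to 13 on the other arrays. On cortex replicate 4 the background correction left the negative control spots bright, with a 95th percentile of 1519 against 59.5 to 77.7 on the other 7 arrays. With the background taken from the negative controls, 3065 genes passed in place of the 3052 given next. Without hypothalamus replicates 1 and 2 the number was 3239.

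Of 12257 genes and accessions tested, 3052 (24.9%) differed between the regions at an adjusted p under 0.05, of which 1684 (13.7% of those tested) were higher in hypothalamus and 1368 (11.2%) higher in cortex. At an unadjusted p under 0.05 the number was 4745. The number called was 1943 without cortex replicate 1, 2007 without cortex replicate 2 and 1826 with slide as a random block. Of the called genes 55.2% were higher in hypothalamus, against 43.8% of the 2958 called in the authors' own normalized table. That table held a different set of genes, with 10715 tested. A difference of at least 2-fold was found for 952 (7.77%), 502 of them higher in hypothalamus and 450 in cortex. The groups of 4 arrays did not overlap for 3964 (32.3%). The median difference over all genes was 0.03, and the median size of the difference, whatever its direction, was 0.31. Most of the array is known only by accession: 822 of the tested rows carried a gene symbol, and 240 of those passed, 133 higher in hypothalamus and 107 in cortex. Among rows without a symbol the differences reached 3.80 towards hypothalamus and -4.64 towards cortex. These rows are counted here but not named, and the genes of each list below are those on the array with a symbol.

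**Figure D1:**
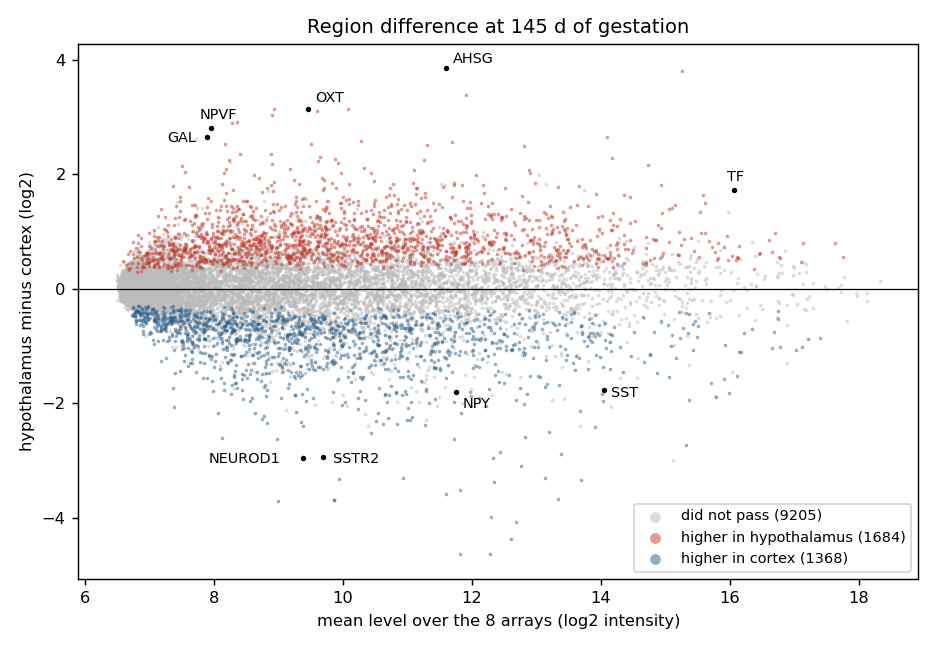
The difference between hypothalamus and cortex at 145 d of gestation (vertical, log2, hypothalamus minus cortex) is plotted against the mean level over the 8 arrays (horizontal, log2 intensity), with 1 point for each of the 12257 genes or accessions tested. The 1684 genes higher in hypothalamus (red) and the 1368 higher in cortex (blue) occur at every level, and the named peptide genes OXT, NPVF and GAL lie near the upper edge while NEUROD1, SSTR2, SST and NPY lie well below 0.

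Most of the neuropeptide genes with a symbol on the array differed between the regions. Of 17 neuropeptide genes on the array, all 17 passed the filter on dim spots and 14 differed (82.4%, against 24.9% of all genes), 11 higher in hypothalamus and 3 higher in cortex, with a median difference of 0.95 against 0.03 over all genes. The 4 arrays of one region did not overlap those of the other for 14 of the 17, against 32.3% of all genes. GHRH, GNRH1 and NPVF were well above background on no cortex array, and GAL and AGRP on 1 of 4. The filter asks for 4 arrays, so a gene bright in hypothalamus alone passes it and then readily differs. The list was also chosen with earlier results of these data known, so no enrichment is read from these shares. In bulk tissue, fewer cells that make a peptide and less RNA in each cell cannot be told apart.

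OXT, GHRH and GNRH1, which encode peptides released towards the pituitary, were higher in hypothalamus. OXT, which encodes oxytocin, the hormone of milk ejection and labour, measured 10.39, 11.48, 10.89 and 11.33 in hypothalamus replicates 1 to 4 and 7.65, 7.98, 8.0 and 7.94 in cortex. Every hypothalamus array lay over 2 log2 units above every cortex array, and the difference was 3.13 ± 0.23 (SE; adjusted p = 0.00013), an 8.76-fold difference. GHRH, the precursor of growth hormone-releasing hormone, measured 8.27, 8.76, 8.56 and 8.72 in hypothalamus and 6.51, 6.37, 6.46 and 6.43 in cortex. GHRH was not well above background on any cortex array, so the hypothalamus was at least 4.24-fold higher (difference 2.14 ± 0.13, adjusted p = 5.2e-05). GNRH1, the precursor of gonadotropin-releasing hormone, measured 7.2, 7.48, 7.0 and 7.47 in hypothalamus and 6.32 to 6.39 in cortex, where it was also not well above background on any array. Its level in hypothalamus was at least 1.80-fold higher (difference 0.94 ± 0.13, adjusted p = 0.0017). A bound of this kind is the mean of the brighter group against, on each array of the dimmer group, the higher of the lowest signal well above background and the probe's own signal.

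NPVF, the precursor of the RFamide-related peptides that act on the reproductive axis and on feeding, had the smallest spread of the large differences. It measured 9.37, 9.25, 9.46 and 9.33 in hypothalamus and 6.50, 6.57, 6.52 and 6.58 in cortex, where no array was well above background. The hypothalamus was at least 6.99-fold higher (difference 2.81 ± 0.09, adjusted p = 4.9e-06). GAL, which encodes galanin, measured 9.25, 9.43, 8.81 and 9.36 in hypothalamus against 6.49, 6.55, 6.64 and 6.58 in cortex, where 1 of 4 arrays was well above background. Its difference was 2.65 ± 0.15 (adjusted p = 3.5e-05). The differences of these dim genes depend on the processing. With an offset of 16 in place of 50, NPVF differed by 3.57, GAL by 3.38 and GHRH by 2.93, and with Agilent's processed signal, where correction and normalization also differ, NPVF differed by 6.91, GAL by 6.0, GHRH by 6.19 and GNRH1 by 4.56, still past the threshold.

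Among the peptides of feeding, AGRP and POMC mark opposing neurons of the arcuate nucleus. AGRP, the agouti-related peptide that drives feeding, measured 7.96, 9.71, 8.17 and 8.45 in hypothalamus and 6.57, 6.43, 6.48 and 6.63 in cortex. Replicate 2 was the highest hypothalamus array, all 4 exceeded the cortex arrays, and the difference was 2.05 ± 0.34 (adjusted p = 0.0040). AGRP was well above background on 1 of 4 cortex arrays, so this difference is against a level near background, and with Agilent's processed signal it was 5.22. POMC, the precursor of the satiety peptide alpha-MSH and of ACTH, measured 9.59, 10.28, 10.20 and 10.64 in hypothalamus and 9.04, 8.41, 9.63 and 9.83 in cortex. The groups overlapped, and POMC did not pass (difference 0.95 ± 0.33, adjusted p = 0.067). PMCH, the precursor of melanin-concentrating hormone of the lateral hypothalamus, was dim in both regions and lay at the edge of the test, with a difference of 0.29 ± 0.09 (adjusted p = 0.0497). It measured 6.89 to 7.05 in hypothalamus and 6.60 to 6.74 in cortex, and it lost its call in 15 of 22 alternatives, among them slide as a random block (adjusted p = 0.11). GHRL, which encodes ghrelin, measured 6.48 to 6.86 and 6.40 to 6.65 (difference 0.12, adjusted p = 0.51).

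The tachykinin genes TAC1 and TAC3 were also higher in hypothalamus. TAC1, the precursor of substance P and neurokinin A, measured 11.81, 12.07, 11.55 and 11.33 in hypothalamus and 10.08, 9.39, 9.61 and 10.34 in cortex (difference 1.83 ± 0.24, adjusted p = 0.0015). TAC3, which encodes neurokinin B, a peptide of the neurons that pace GnRH release, measured 7.39 to 8.03 in hypothalamus and 6.98 to 7.18 in cortex (difference 0.71 ± 0.15, adjusted p = 0.0098). Neither gene overlapped between the regions. NPPC, the C-type natriuretic peptide precursor, measured 8.96, 9.91, 9.98 and 9.58 against 7.53, 7.76, 7.75 and 7.46 (difference 1.98 ± 0.22, adjusted p = 0.00074). ADCYAP1, which encodes the peptide PACAP, measured 13.63 to 14.22 in hypothalamus and 12.31 to 13.53 in cortex (difference 1.09 ± 0.26, adjusted p = 0.016). With slide as a random block TAC3 (adjusted p = 0.055) and ADCYAP1 (adjusted p = 0.091) no longer passed. GRP, the gastrin-releasing peptide gene, overlapped between the regions (difference 0.41, adjusted p = 0.43).

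The 3 peptide genes higher in cortex were SST, NPY and UCN. SST, which encodes somatostatin, measured 12.50, 13.55, 13.09 and 13.52 in hypothalamus and 14.50, 15, 14.99 and 15.20 in cortex. NPY, which encodes neuropeptide Y, measured 10.47, 11.82, 10.45 and 10.65 in hypothalamus and 12.69, 12.73, 12.58 and 12.59 in cortex. Both genes are known from hypothalamic neurons as well as from cortical interneurons, and both were lower on every hypothalamus array than on any cortex array. Their differences were -1.76 ± 0.25 (adjusted p = 0.0021) and -1.80 ± 0.29 (adjusted p = 0.0032). UCN, which encodes urocortin, a relative of corticotropin-releasing hormone, measured 9.0, 8.62, 8.58 and 8.15 in hypothalamus and 10.22, 10.17, 10.46 and 11.12 in cortex (difference -1.90 ± 0.25, adjusted p = 0.0014). Of the enzymes that process peptide precursors, 2 on the array carried a symbol. The prohormone convertase gene PCSK1 was higher in cortex (difference -0.95 ± 0.15, adjusted p = 0.0032), and carboxypeptidase E, CPE, overlapped between the regions (difference -0.83 ± 0.28, adjusted p = 0.063).

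**Figure D2:**
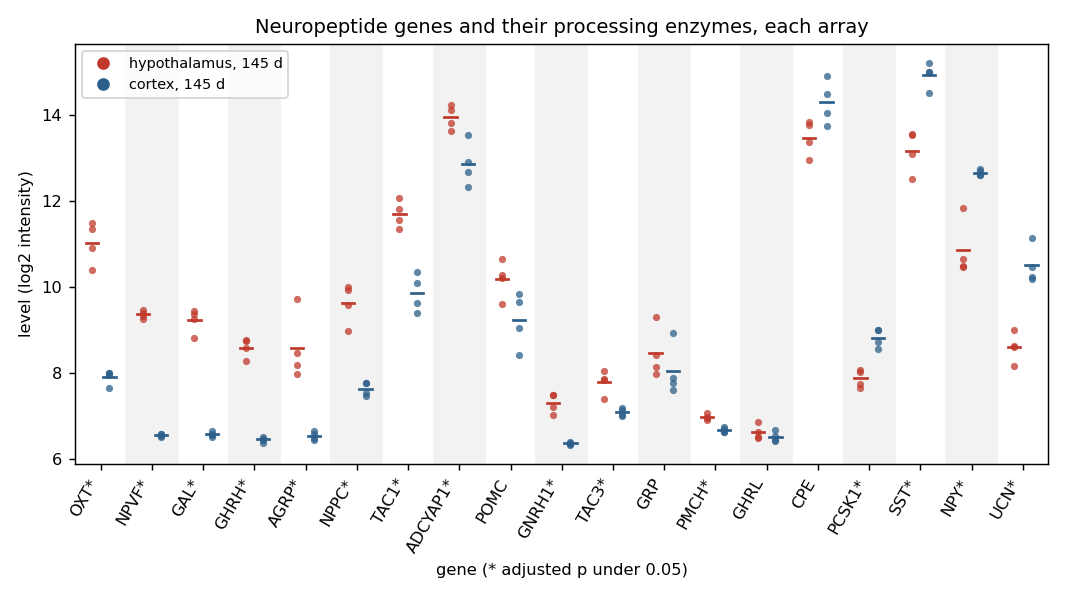
Levels of the 17 neuropeptide genes and of the processing enzymes CPE and PCSK1 on each array at 145 d (vertical, log2 intensity), with 4 points per region, a bar at each mean, and genes ordered by their difference. Hypothalamus points (red) lie clear above cortex points (blue) for OXT, NPVF, GAL, GHRH and AGRP at the left, and the order turns for SST, NPY and UCN at the right.

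The list of peptide and transmitter receptors had a share called near that of all genes, and the members called were higher in cortex. Of 21 such genes on the array, 20 passed the filter, 6 were higher in cortex, none was higher in hypothalamus and 14 did not pass (30.0% called, against 24.9% of all genes), with a median difference of -0.20. The receptors for growth hormone and thyrotropin, counted in another list below, were higher in hypothalamus. The somatostatin receptors stood out in size. SSTR2 measured 7.61, 8.56, 8.40 and 8.28 in hypothalamus and 11.19, 11.16, 11.13 and 11.15 in cortex. The cortex arrays lay close together and above every hypothalamus array, and the difference was -2.94 ± 0.19 (adjusted p = 8.5e-05), a 7.69-fold difference. SSTR1 measured 7.35, 7.83, 7.67 and 7.70 against 9.48, 9.64, 8.74 and 9.01 (difference -1.58 ± 0.21, adjusted p = 0.0015). NPY1R, a receptor for neuropeptide Y, measured 7.76 to 7.92 in hypothalamus and 8.49 to 8.63 in cortex (difference -0.72 ± 0.10, adjusted p = 0.0016). The other receptors of these peptides with a symbol on the array did not pass: SSTR5 differed by 0.06 (adjusted p = 0.77) and NPY2R by -0.13 (adjusted p = 0.44).

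Smaller differences towards cortex were found for CRHR1, the receptor that binds corticotropin-releasing hormone and urocortin (-0.54 ± 0.11, adjusted p = 0.0095), for the beta-1 adrenergic receptor ADRB1 (-0.42 ± 0.11, adjusted p = 0.023) and for the muscarinic receptor CHRM3 (-0.39 ± 0.10, adjusted p = 0.019). The regions did not overlap for any of these 3, but with slide as a random block ADRB1 (adjusted p = 0.064) and CHRM3 (adjusted p = 0.053) no longer passed. All 3 were dim in hypothalamus, and across the alternatives their differences reached -2.31 for CRHR1, -1.51 for ADRB1 and -1.73 for CHRM3. GRM3, a metabotropic glutamate receptor outside that list, was among the 12 largest differences towards cortex of genes with a symbol. It measured 6.95 to 7.46 in hypothalamus and 8.79 to 9.30 in cortex (difference -1.77 ± 0.17, adjusted p = 0.00039). The oxytocin receptor OXTR did not pass and measured 6.60 to 6.84 in hypothalamus and 6.62 to 6.70 in cortex (difference 0.12, adjusted p = 0.41). Nor did TRHR, the thyrotropin-releasing hormone receptor, which differed by 0.36 (adjusted p = 0.19), GRM5 by -0.57 (adjusted p = 0.17) and the kappa opioid receptor OPRK1 by -0.25 (adjusted p = 0.41).

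Receptors for steroid, thyroid and growth hormones and prostaglandins differed in both directions. Of 23 on the array, 21 passed the filter, 6 were higher in hypothalamus, 2 were higher in cortex and 13 did not pass (38.1% called, against 24.9% of all genes), with a median difference of 0.18. The ghrelin receptor gene GHSR was among those below the filter. ESR1, the estrogen receptor alpha through which estradiol acts on the hypothalamus, measured 9.86, 10.29, 9.95 and 9.87 in hypothalamus and 7.67, 7.19, 7.25 and 9.13 in cortex. Cortex replicate 4 was the highest cortex array and still below every hypothalamus array. The difference was 2.18 ± 0.39 (adjusted p = 0.0055), and it was 2.62 (adjusted p = 0.00037) without cortex replicate 4 and 2.31 with slide as a random block, where it no longer passed (adjusted p = 0.067).

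PGR, the progesterone receptor, measured 7.30, 7.48, 7.38 and 7.33 in hypothalamus and 6.61, 6.58, 6.68 and 6.63 in cortex (difference 0.75 ± 0.09, adjusted p = 0.0012). TSHR, the thyrotropin receptor, measured 7.46, 7.43, 7.04 and 7.05 against 6.63, 6.60, 6.33 and 6.43 (difference 0.75 ± 0.14, adjusted p = 0.0067). Both were separated in all 8 arrays, and both were dim in cortex, where 2 and 1 of 4 arrays were well above background. Their differences are thus against a level near background, and across the alternatives they reached 2.37 for PGR and 3.15 for TSHR. The growth hormone receptor GHR differed by 0.93 ± 0.21 (adjusted p = 0.015), and by 0.74 without hypothalamus replicate 1, its highest array. The receptor for prostaglandin F2-alpha, PTGFR, differed by 1.03 ± 0.26 (adjusted p = 0.020), with 9.25 and 9.18 in hypothalamus replicates 1 and 2 and 8.11 and 8.35 in replicates 3 and 4, against 7.58 to 7.75 in cortex. PTGER3, a receptor for prostaglandin E2, differed by 0.39 ± 0.10 (adjusted p = 0.027), and by 0.38 with slide as a random block (adjusted p = 0.13). It lost its call in 11 of 23 alternatives, that block included.

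The thyroid hormone receptor THRB and the mannose-6-phosphate/IGF2 receptor IGF2R were higher in cortex, with differences of -0.64 ± 0.14 (adjusted p = 0.014) and -0.64 ± 0.11 (adjusted p = 0.0051). THRB did not pass with slide as a random block (adjusted p = 0.066). The angiotensin receptor AGTR1 measured 8.74, 8.77, 7.50 and 8.28 in hypothalamus and 7.40 to 7.6 in cortex (difference 0.81 ± 0.26, adjusted p = 0.054). AGTR1 passed in 7 of 22 alternatives, one of them leaving out hypothalamus replicate 3, its lowest array (1.08, adjusted p = 0.0037), and it passed towards hypothalamus at 120 and 130 days and in newborns. The glucocorticoid receptor NR3C1 (difference 0.28, adjusted p = 0.23) and the leptin receptor LEPR (difference 0.18, adjusted p = 0.27) did not pass.

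**Figure D3:**
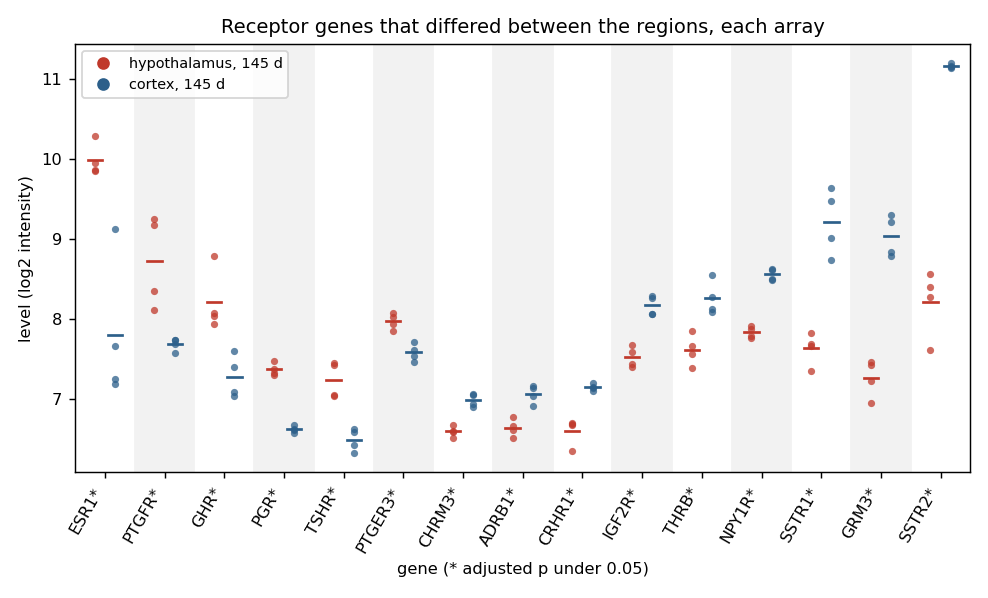
Levels of the receptor genes that differed between the regions on each array at 145 d (vertical, log2 intensity), with 4 points per region and a bar at each mean. ESR1, with the largest difference towards hypothalamus (red, at the left), has 1 cortex array at 9.13, and SSTR2, at the right, has all 4 cortex arrays between 11.13 and 11.19.

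Few transcription factors of regional identity carried a symbol on this array. Of 6 factors and signals of hypothalamic development on the array, 5 passed the filter, 2 were higher in hypothalamus and 3 did not pass (40% called, against 24.9% of all genes). ISL1, a LIM-homeodomain factor of ventral hypothalamic neurons, measured 8.37, 8.55, 8.42 and 8.70 in hypothalamus and 6.78, 6.74, 6.72 and 6.67 in cortex (difference 1.78 ± 0.11, adjusted p = 5.2e-05). NKX6-1, a homeodomain factor of the ventral neural tube, measured 9.19, 9.67, 8.95 and 9.34 against 7.82, 7.73, 8.0 and 7.93 (difference 1.42 ± 0.16, adjusted p = 0.00078). NKX2-2 (difference 0.15, adjusted p = 0.45) and FGF10 (difference 0.22, adjusted p = 0.10) did not pass.

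NEUROD1, a basic helix-loop-helix factor of differentiating excitatory neurons, was higher in cortex. It measured 8.10, 8.02, 7.80 and 7.69 in hypothalamus and 10.82, 10.92, 10.66 and 11.002 in cortex. No array of either region lay within 2 log2 units of the other region, and the difference was -2.95 ± 0.13 (adjusted p = 1.4e-05), a 7.72-fold difference. PAX6, the other cortical factor with a symbol on the array, measured 8.11 to 8.29 in hypothalamus and 7.92 to 8.70 in cortex (difference -0.17, adjusted p = 0.48). NKX6-1 and NEUROD1 do not mark the labelled regions alone. NKX6-1 averaged 9.29 in hypothalamus but 10.83 in brainstem and 10.19 in hippocampus, and NEUROD1 averaged 10.85 in cortex and 10.79 in hippocampus.

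Of 3 genes of cortical neurons, 1 was higher in cortex (33.3% called, against 24.9% of all genes). This was GRIN1, the obligate subunit of NMDA receptors (difference -1.16 ± 0.13, adjusted p = 0.00091). HPCAL1, a neuronal calcium sensor, differed by -0.54 ± 0.20 (adjusted p = 0.078) and GRIA2, an AMPA receptor subunit, by -0.02 (adjusted p = 0.94). The gene named CAMK2 in the files, without a subunit letter, encodes a calcium/calmodulin-dependent kinase of synapses and measured 8.51 to 9.18 in hypothalamus and 10.56 to 11.08 in cortex (difference -1.81 ± 0.18, adjusted p = 0.00047). Of the genes for transmitter synthesis and uptake, 2 of 3 on the array could be tested and neither passed, against 24.9% of all genes. The noradrenaline transporter SLC6A2 differed by 0.29 (adjusted p = 0.16) and the neuronal nitric oxide synthase NOS1 by -0.10 (adjusted p = 0.46).

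Among enzymes of steroid and prostaglandin metabolism, 7 of 9 on the array passed the filter, with 1 gene higher in each region (28.6% called, against 24.9% of all genes). HSD11B1, which regenerates active cortisol from cortisone inside cells, measured 9.98, 9.53, 9.49 and 9.69 in hypothalamus and 7.65, 7.39, 7.83 and 8.06 in cortex. The arrays were well separated (difference 1.94 ± 0.17, adjusted p = 0.00029). HSD11B2, which inactivates cortisol, was dim in both regions (6.59 to 6.83 and 6.54 to 6.65, adjusted p = 0.34). PTGS2, the inducible cyclooxygenase, was higher in cortex, with 7.98, 6.78, 7.25 and 7.35 in hypothalamus and 9.13, 9.47, 8.93 and 8.37 in cortex (difference -1.64 ± 0.29, adjusted p = 0.0052). These levels average 2 probes that disagree in size: the first, not well above background on any hypothalamus array, differed by -0.28 and did not pass alone (adjusted p = 0.29), and the second differed by -2.99 (adjusted p = 0.0034). The constitutive cyclooxygenase PTGS1 differed by -0.36 (adjusted p = 0.27). PTGDS, the prostaglandin D synthase of meninges, choroid plexus and oligodendrocytes, measured 15.73 to 16.65 in hypothalamus and 15.91 to 16.42 in cortex (difference 0.04, adjusted p = 0.92).

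Of 32 growth factor genes on the array, those of binding proteins and receptors included, 30 were tested, 2 were higher in hypothalamus and 4 in cortex (20.0% called, against 24.9%), with a median difference of -0.18. FST, which encodes follistatin, the binding protein of activins, measured 9.45, 8.89, 8.67 and 8.71 in hypothalamus and 7.17, 7.35, 7.61 and 7.38 in cortex (difference 1.55 ± 0.19, adjusted p = 0.0011). INHBA, the subunit from which activin A is made, differed in the opposite direction, with 9.93, 10.30, 9.70 and 9.46 against 10.78, 10.86, 11.05 and 10.74 (difference -1.01 ± 0.18, adjusted p = 0.0053). FGF2 was higher in hypothalamus (1.09 ± 0.26, adjusted p = 0.017) and TGFB2 higher in cortex (-1.06 ± 0.18, adjusted p = 0.0047). With slide as a random block FGF2 (adjusted p = 0.087) and TGFB2 (adjusted p = 0.076) no longer passed.

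Oligodendrocytes are the cells that make myelin. Of 6 of their genes that carry a symbol on the array, 3 were higher in hypothalamus and 3 did not pass (50% called, against 24.9% of all genes). Their median difference was 1.54, against 0.03 over all genes. TF, which encodes the iron carrier transferrin, measured 16.33, 17.21, 16.98 and 17.18 in hypothalamus and 15.13, 15.07, 15.18 and 15.41 in cortex (difference 1.73 ± 0.20, adjusted p = 0.00089). CRYAB, a small heat shock protein abundant in these cells, measured 14.67, 14.09, 12.96 and 13.92 against 11.60, 11.58, 12.06 and 12.34 (difference 2.02 ± 0.34, adjusted p = 0.0044). GJB1, the gap junction protein connexin 32 of myelin, measured 8.71 to 9.23 against 7.51 to 7.92 (difference 1.36 ± 0.15, adjusted p = 0.00069). None of these 3 overlapped between the regions. CD9, a tetraspanin of myelin that other cells also carry, measured 13.70, 9.90, 13.32 and 13.03 in hypothalamus and 11.13, 11.49, 9.99 and 10.06 in cortex (difference 1.82 ± 0.79, adjusted p = 0.13). The difference of CD9 was 2.68 without hypothalamus replicate 2, its lowest array, and then passed (adjusted p = 0.0042). The ferritin heavy chain gene FTH1 differed by -0.64 (adjusted p = 0.34), and by -0.097 without hypothalamus replicate 1, its lowest array.

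Among markers of other cells the tissue could hold, the shares called in the lists of astrocyte, myeloid, endothelial and meningeal genes lay between 7.69% and 30.0%, against 24.9% of all genes. Of 10 astrocyte genes, 2 were higher in hypothalamus, 1 was higher in cortex and 7 did not pass. The water channel AQP4 differed by 0.98 ± 0.27 (adjusted p = 0.032) and the secreted glycoprotein CHI3L1 by 0.64 ± 0.18 (adjusted p = 0.030), and AQP4 did not pass with slide as a random block (adjusted p = 0.079). The glutamate transporter SLC1A2 was higher in cortex (-0.47, adjusted p = 0.028), but 1 of its 3 probes differed by 0.11 (adjusted p = 0.50), and SLC1A2 did not pass with slide as a random block (adjusted p = 0.15). The calls of these genes are near the threshold: AQP4 lost its call in 9 of 22 alternatives, CHI3L1 in 8 of 22 and SLC1A2 in 10 of 24, beside the probe that turned sign. The relative of SLC1A2, SLC1A3, differed by -0.80 (adjusted p = 0.13). Of 12 genes of microglia and other myeloid cells, 2 were higher in hypothalamus and 1 in cortex: the Fc receptor gamma chain FCER1G (0.93 ± 0.15, adjusted p = 0.0040), the integrin beta-2 chain ITGB2 (0.64 ± 0.14, adjusted p = 0.012) and cathepsin B, CTSB (-1.16 ± 0.15, adjusted p = 0.0014). ITGAM, the partner of ITGB2 in the microglial integrin CD11b/CD18, differed by 0.46 ± 0.15 (adjusted p = 0.061). With slide as a random block ITGB2 did not pass (adjusted p = 0.073). Of 13 endothelial genes 1, the endothelial nitric oxide synthase NOS3, was higher in cortex (-0.62 ± 0.14, adjusted p = 0.013; 0.054 with slide as a random block). Of 10 genes of meninges and matrix 2 were higher in hypothalamus, the metalloproteinase inhibitor TIMP1 (0.94 ± 0.14, adjusted p = 0.0022) and the intermediate filament vimentin, VIM (0.84 ± 0.19, adjusted p = 0.015).

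Choroid plexus, ependyma and pituitary tissue border the hypothalamus, and their markers were examined for that reason. TTR, which encodes transthyretin, the chief product of the choroid plexus, varied widely within each region: 12.10, 11.66 and 9.93 on hypothalamus replicates 1, 3 and 4, and 15.30, 10.82, 10.19 and 8.24 in cortex. The spot was an outlier on hypothalamus replicate 2, so the fit used 3 arrays there (difference 0.09 ± 1.49, adjusted p = 0.97). Of the 7 genes of that list, 2 were higher in hypothalamus and 5 did not pass (28.6% called, against 24.9% of all genes). The 2 were VIM and CP, which encodes ceruloplasmin (0.85 ± 0.25, adjusted p = 0.041, and 0.061 with slide as a random block). CP measured 8.37 on hypothalamus replicate 1 and 7.08 to 7.41 on the others, and its difference was 0.57 (adjusted p = 0.011) without that array. Of 9 pituitary genes, 4 (GH, FSHB, POU1F1 and GNRHR) were below the filter and none of the 5 tested passed, against 24.9% of all genes. CGA, the alpha subunit shared by the glycoprotein hormones, was nonetheless uneven, with 9.49, 6.99, 7.84 and 11.80 in hypothalamus and 6.35 to 6.50 in cortex, where no array was well above background. Its hypothalamus mean was at least 5.88-fold above cortex (difference 2.61 ± 0.88, adjusted p = 0.060), and it passed with the background taken from negative controls (2.99, adjusted p = 0.049), with Agilent's processed signal (6.74, adjusted p = 0.0077) and without hypothalamus replicate 2 (3.29, adjusted p = 0.021). Without replicate 4, its highest array, the difference was 1.69 (adjusted p = 0.0496), and with slide as a random block the adjusted p was 0.33. CGA passed towards hypothalamus at 100, 120 and 130 days and in newborns, with differences of 2.17, 2.84, 3.41 and 5.11 (adjusted p = 0.022, 0.0026, 0.017 and 0.0076), and differed by 2.45 at 80 days (adjusted p = 0.10). LHB, the beta subunit of luteinizing hormone, differed by -0.43 (adjusted p = 0.26). The part of pituitary or choroid plexus tissue in the results was not tested.

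AHSG, which encodes fetuin-A, an abundant plasma glycoprotein of the fetus, was higher in hypothalamus. It measured 15.19, 12.76, 13.36 and 12.77 in hypothalamus and 9.16, 9.55, 9.47 and 10.50 in cortex. Replicate 1 was the highest of the hypothalamus arrays, and all 4 lay over 2 log2 units above the cortex arrays (difference 3.85 ± 0.54, adjusted p = 0.0019, a 14.4-fold difference). Of the 6 genes of blood cells and plasma that were tested, AHSG alone passed (16.7%, against 24.9% of all genes). The beta-globin gene HBB measured 13.89, 12.24, 12.15 and 12.50 in hypothalamus and 12.59, 11.03, 12.29 and 11.84 in cortex (difference 0.76, adjusted p = 0.24), and the erythropoietin receptor EPOR differed by 0.20 (adjusted p = 0.38). HBB too was highest on hypothalamus replicate 1, and without that array AHSG differed by 3.29 (adjusted p = 0.00053) and HBB by 0.36.

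The lists of antigen presentation and lymphoid genes had 16.7% and 14.3% called, against 24.9% of all genes. Of 12 genes of antigen presentation and interferon response 2 were higher in hypothalamus, among them B2M, the light chain of MHC class I (1.19 ± 0.16, adjusted p = 0.0018), which measured 14.94 to 15.50 in hypothalamus and 13.65 to 14.13 in cortex. Of 7 lymphoid genes 1, the T-cell receptor zeta chain CD247, was higher in hypothalamus (0.73 ± 0.17, adjusted p = 0.015; 0.069 with slide as a random block). Of 12 immune genes that the study named from these samples, 2 were higher in hypothalamus (16.7% called, against 24.9% of all genes), B2M and the cytokine gene IL10 (0.69 ± 0.12, adjusted p = 0.0047). IL10 measured 7.68 to 8.07 in hypothalamus and 7.13 to 7.39 in cortex as the mean of 2 probes, of which 1 passed alone (1.19, adjusted p = 0.013) and the other did not (0.19, adjusted p = 0.61). With Agilent's processed signal IL10 did not pass (adjusted p = 0.090). That list was chosen by the study on these samples and is not independent evidence of a direction.

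Energy metabolism genes differed in both directions. Of 12 tested, 2 were higher in hypothalamus and 4 in cortex (50% called, against 24.9% of all genes). LDHA, a subunit of lactate dehydrogenase, measured 9.95, 11.50, 11.66 and 11.50 in hypothalamus and 13.27, 13.44, 12.95 and 12.58 in cortex (difference -1.91 ± 0.38, adjusted p = 0.0082). The glycolytic enzyme aldolase A, ALDOA, differed by -1.5 ± 0.22 (adjusted p = 0.0021). GAPDH, a later enzyme of glycolysis and a gene often used as a reference, was higher in hypothalamus, with 10.88, 10.35, 9.86 and 9.83 against 8.19, 8.18, 8.75 and 8.51 (difference 1.82 ± 0.25, adjusted p = 0.0017). ATP5PD, a subunit of ATP synthase, differed by 1.07 ± 0.31 (adjusted p = 0.037, and 0.055 with slide as a random block). Outside that list, ATP6V0C, a subunit of the proton pump of lysosomes and synaptic vesicles, differed by -1.73 ± 0.15 (adjusted p = 0.00028). It was among the 12 largest differences towards cortex of genes with a symbol.

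Of 12 lysosomal genes, 1 was higher in hypothalamus, the cholesterol carrier NPC2 (1.17 ± 0.15, adjusted p = 0.0014), and 3 were higher in cortex, among them CTSB and cathepsin D, CTSD (-1.06 ± 0.33, adjusted p = 0.046). These 4 of 12 are 33.3%, against 24.9% of all genes. CTSD measured 10.54 on hypothalamus replicate 1 and 11.93 to 12.18 on the others, and without that array the difference was -0.69 (adjusted p = 0.0043). CTSD lost its call in 12 of 23 alternatives, among them slide as a random block (adjusted p = 0.063). Cathepsin F, CTSF, differed by -1.02 ± 0.37 (adjusted p = 0.073). Of 9 genes of lipid metabolism, 2 were higher in each region (44.4% called, against 24.9% of all genes). FABP5, a fatty acid binding protein of developing neurons and glia, measured 14.42 to 15.09 in hypothalamus and 12.69 to 13.42 in cortex (1.66 ± 0.21, adjusted p = 0.0014). The fatty acid synthase gene FASN was higher in cortex (-0.82 ± 0.17, adjusted p = 0.010).

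Immediate early genes are switched on in neurons with activity. Of 11 immediate early and stress genes tested, 4 passed (36.4%, against 24.9% of all genes), and 3 of these were higher in cortex: JUNB (-0.86 ± 0.12, adjusted p = 0.0022), FOS (-0.71 ± 0.18, adjusted p = 0.023) and JUN (-0.65 ± 0.14, adjusted p = 0.012). TXNIP, a thioredoxin inhibitor that responds to glucose, was higher in hypothalamus (0.97 ± 0.21, adjusted p = 0.013), with 1 of its 2 probes passing alone (1.28) and the other not (0.66, adjusted p = 0.31). The other 7 did not pass, among them EGR1 (-0.13, adjusted p = 0.43), whose 2 probes gave 0.35 (adjusted p = 0.17) and -0.61 (adjusted p = 0.0088). With slide as a random block neither FOS (adjusted p = 0.055) nor TXNIP (adjusted p = 0.054) passed. In the study's methods the hypothalamus was dissected before the frontal cortex, and the part of that order in these values was not tested. Of 10 cell cycle genes 2 were higher in hypothalamus (20.0%, against 24.9% of all genes), PCNA (0.66 ± 0.12, adjusted p = 0.0051) and CDK2 (0.51 ± 0.11, adjusted p = 0.012).

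Among genes with a symbol, the remaining members of the 12 largest differences in each direction belonged to none of these groups. KRT27 and KRT25, keratins known from the hair follicle, were higher in cortex. KRT27 measured 6.83, 6.92, 6.81 and 6.74 in hypothalamus and 9.15, 9.11, 9.97 and 9.52 in cortex (difference -2.61 ± 0.19, adjusted p = 0.00013). KRT25 was not well above background on any hypothalamus array (6.24 to 6.44) and measured 7.99, 7.87, 7.97 and 9.81 in cortex, at least 3.89-fold higher (difference -2.06 ± 0.40, adjusted p = 0.0074). The difference of KRT25 was -1.59 without cortex replicate 4, its highest array, and KRT25 did not pass with slide as a random block (adjusted p = 0.11). With Agilent's processed signal it was -6.39. TNMD, which encodes tenomodulin, a membrane protein of tendon, measured 6.43 to 6.59 in hypothalamus and 7.96 to 8.74 in cortex (difference -1.74 ± 0.18, adjusted p = 0.00052). Of its 2 probes, 1 was well above background on 1 of 4 hypothalamus arrays and the other on 0, and with Agilent's processed signal TNMD differed by -5.02. SPA17, a protein of sperm and motile cilia, was higher in hypothalamus, with 11.06 to 11.92 against 9.34 to 9.76 (difference 1.88 ± 0.20, adjusted p = 0.00064).

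The direction of the 145-day differences was next compared with that at the other ages, whose arrays were separate from those at 145 days. Of the genes called at 145 days, 2434 of 3051 tested (79.8%) had the same direction at 80 days, 2655 of 3051 at 100 days, 2870 of 3052 at 120 days, 2994 of 3052 (98.1%) at 130 days and 2899 of 3052 (95%) in newborns. At those ages 853, 1373, 1313, 2029 and 1406 of them also passed in the same direction, and 65, 31, 2, 0 and 5 passed in the opposite direction. The share of all genes called at each of these ages was 15.5%, 23.9%, 18.2%, 26.1% and 18.2%. Because cortex and hypothalamus lay on different slides and scan days at every age, these ages do not separate region from slide.

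OXT, NPVF, GAL, GHRH, AGRP, NPPC and TAC3 passed towards hypothalamus at all 5 other ages, and UCN, SSTR1, SSTR2 and NPY1R towards cortex. OXT differed by 4.03, 2.82, 2.36, 3.42 and 2.97 at 80, 100, 120 and 130 days and in newborns. NPVF differed by 1.76, 2.10, 2.99, 2.86 and 2.25 at the same ages, and GHRH by 1.48, 1.36, 1.72, 1.80 and 1.87. POMC, which did not pass at 145 days, passed at all 5 other ages, with differences of 1.14 to 1.85. ISL1, PGR, TSHR, HSD11B1, TF and CRYAB also passed at all 5. NEUROD1 was higher in cortex at 4 of them, and at 100 days its difference of -1.91 did not pass (adjusted p = 0.080). ESR1 differed by 0.87 (adjusted p = 0.19) at 80 days and by 0.54 (adjusted p = 0.59) at 120 days, and passed at 100 and 130 days and in newborns.

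Whether the region difference itself had changed since 80 days was tested with an interaction term over the 16 arrays of both ages. Of 12690 genes tested, 762 (6.0%) had a different region difference at 145 days, 258 (2.03%) shifted towards hypothalamus and 504 (3.97%) towards cortex, and 2512 had an unadjusted p under 0.05. Without cortex replicate 2 at 145 days 482 passed, and with one fit over all ages 1332. Of 853 with a symbol, 13 shifted towards hypothalamus and 53 towards cortex. Of the 3 peptide genes higher in cortex, SST and NPY were among the latter and UCN was not. SST differed by -0.10 at 80 days and -1.76 at 145 days, a shift of -1.66 ± 0.41 (adjusted p = 0.028). Its mean level was 13.45 ± 0.37 (SD, n = 4) in cortex and 13.35 ± 0.57 in hypothalamus at 80 days, and 14.92 ± 0.30 and 13.16 ± 0.49 at 145 days. NPY differed by -0.11 at 80 days and shifted by -1.69 ± 0.40 (adjusted p = 0.023), with cortex at 11.93 ± 0.18 and then 12.65 ± 0.07 and hypothalamus at 11.82 ± 0.52 and then 10.85 ± 0.65.

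The processing enzymes and the NMDA receptor subunit shifted the same way. PCSK1 differed by 0.43 at 80 days and shifted by -1.38 ± 0.22 (adjusted p = 0.0022), CPE by 0.99 and -1.81 ± 0.48 (adjusted p = 0.038), and GRIN1 by -0.25 and -0.91 ± 0.18 (adjusted p = 0.0081). CAMK2 shifted by -1.65 ± 0.23 (adjusted p = 0.00096), from 9.34 ± 0.22 to 10.75 ± 0.23 in cortex beside 9.18 ± 0.18 and 8.94 ± 0.30 in hypothalamus. PTGDS shifted towards cortex by -2.92 ± 0.31 (adjusted p = 0.00019). Its level went from 10.58 ± 0.34 to 16.20 ± 0.26 in cortex and from 13.54 ± 0.30 to 16.24 ± 0.41 in hypothalamus, so that a difference of 2.96 at 80 days had become 0.04. IGFBP6, an IGF binding protein, and TUBA4A, an alpha-tubulin, shifted by -2.63 ± 0.47 (adjusted p = 0.0041) and -2.56 ± 0.42 (adjusted p = 0.0028).

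Fewer named genes shifted towards hypothalamus. INHBA shifted by 2.10 ± 0.54 (adjusted p = 0.032): it fell from 12.82 ± 0.67 to 10.86 ± 0.14 in cortex and measured 9.71 ± 0.88 and 9.85 ± 0.36 in hypothalamus. PTGFR shifted by 1.65 ± 0.29 (adjusted p = 0.0040) and turned from higher in cortex at 80 days (-0.62, adjusted p = 0.0064) to higher in hypothalamus at 145 days (1.03). LPAR1, a lysophosphatidic acid receptor of oligodendrocytes, shifted by 1.35 ± 0.34 (adjusted p = 0.032), from 8.01 ± 0.57 to 10.78 ± 0.28 in hypothalamus and from 8.15 ± 0.27 to 9.57 ± 0.26 in cortex. GJB1 shifted by 1.21 ± 0.17 (adjusted p = 0.00078), with 6.93 ± 0.07 and 9.01 ± 0.23 in hypothalamus and 6.78 ± 0.05 and 7.66 ± 0.18 in cortex. NKX6-1 shifted by 0.87 ± 0.20 (adjusted p = 0.022).

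**Figure D4:**
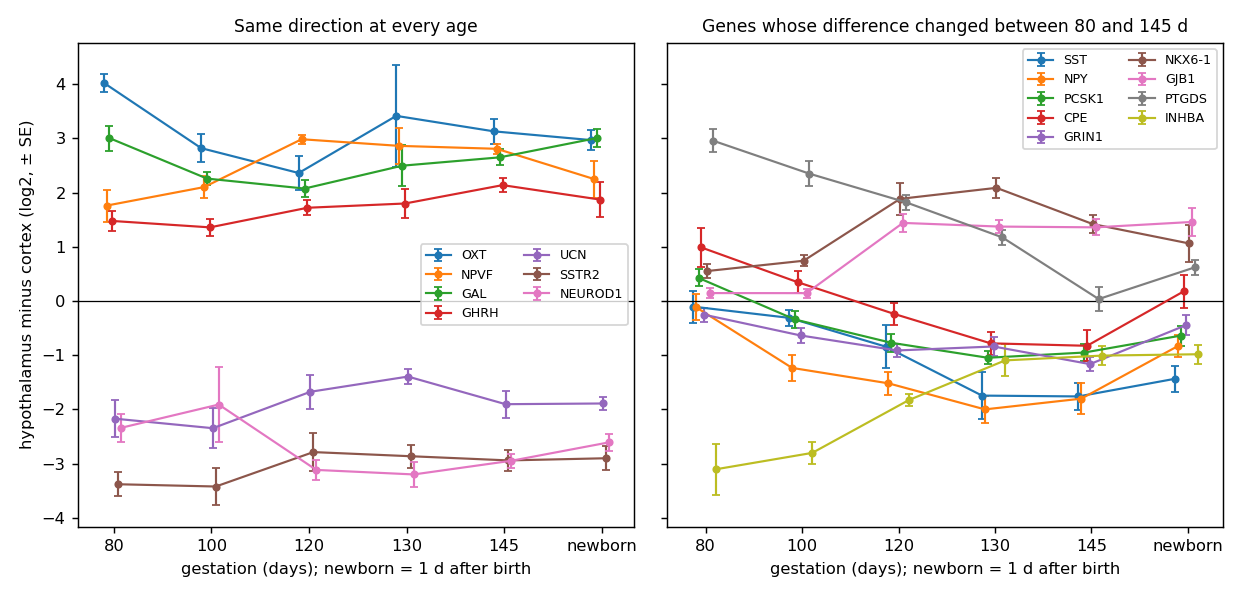
Region difference (vertical, log2, hypothalamus minus cortex, with its standard error) at each age from 80 days of gestation to newborn (horizontal) and 4 arrays per region at each age. At the left, OXT, NPVF, GAL and GHRH stay above 0 and UCN, SSTR2 and NEUROD1 below 0 at every age, while at the right SST and NPY leave 0 after 80 days, PTGDS reaches 0.04 at 145 days, and INHBA moves from -3.11 to -1.01.

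The levels in brainstem and hippocampus at 145 days (n = 4 each) place these differences among the regions and are given as a description, without a test. OXT was 11.02 ± 0.49 in hypothalamus, 8.93 ± 0.17 in brainstem, 8.70 ± 0.44 in hippocampus and 7.89 ± 0.16 in cortex. NPVF was 9.35 ± 0.09 in hypothalamus, 7.72 ± 0.41 in hippocampus, 6.81 ± 0.09 in brainstem and 6.54 ± 0.04 in cortex. GAL, GHRH, AGRP, ESR1 and ISL1 had every hypothalamus array above every array of the other 3 regions. NEUROD1 was as high in hippocampus (10.79 ± 0.11) as in cortex (10.85 ± 0.15) within their spread, and 7.92 ± 0.61 in brainstem beside 7.90 ± 0.19 in hypothalamus. SST and NPY likewise had hippocampus (14.70 ± 0.54 and 12.72 ± 0.63) within the spread of cortex (14.92 ± 0.30 and 12.65 ± 0.07).

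Other genes were not highest in hypothalamus. AHSG was 14.84 ± 0.71 in brainstem, 13.52 ± 1.15 in hypothalamus, 11.27 ± 0.86 in hippocampus and 9.67 ± 0.58 in cortex. The hippocampus arrays of AHSG overlapped those of cortex, while for CRYAB, NKX6-1 and GJB1 every cortex array lay below every array of the other 3 regions. CRYAB was 14.90 ± 0.19 in brainstem, 14.56 ± 0.25 in hippocampus, 13.91 ± 0.71 in hypothalamus and 11.90 ± 0.37 in cortex. NKX6-1 was 10.83 ± 0.21, 10.19 ± 0.28, 9.29 ± 0.30 and 7.87 ± 0.12 in the same order of regions, and GJB1 10.43 ± 0.10, 9.02 ± 0.30, 9.01 ± 0.23 and 7.66 ± 0.18. The peptide gene NPPC was 10.31 ± 0.19 in brainstem, above every hypothalamus array (9.61 ± 0.46), and SPA17 was 11.66 ± 0.67 in hippocampus, which overlapped hypothalamus (11.43 ± 0.39). SSTR2 was 11.16 ± 0.03 in cortex, 9.68 ± 0.29 in hippocampus, 8.22 ± 0.13 in brainstem and 8.21 ± 0.42 in hypothalamus.

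**Figure D5:**
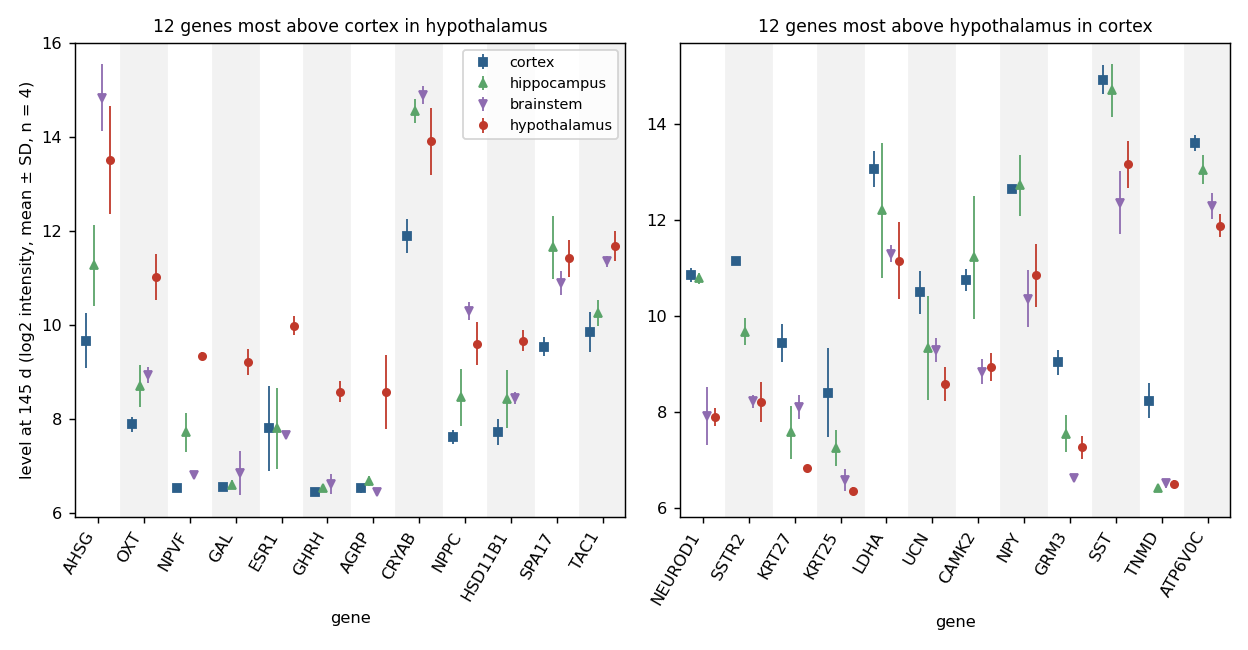
Levels at 145 d in cortex, hippocampus, brainstem and hypothalamus (vertical, log2 intensity, mean and SD of 4 arrays) of the 12 named genes with the largest difference in each direction. OXT, NPVF, GAL, ESR1, GHRH and AGRP are highest in hypothalamus among the 4 regions, AHSG, CRYAB and NPPC have their highest mean in brainstem and SPA17 in hippocampus, and NEUROD1, NPY and SST have hippocampus near cortex.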

How the data were processed

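RNA of each region was labelled with Cy3 and hybridized to ovine 8-array Agilent slides, which the authors scanned and read with Feature Extraction, version 10.1.1.1 per the file headers, where the study's methods name an earlier version. The deposited files hold spot intensities on a linear scale (mean signal and local background) and flags, and the deposited series table holds the authors' log2 normalized values, used as an alternative. Arrays have no read depth, so precision rests on there being 4 per region.

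The study's methods name background correction and quantile normalization in limma. Here limma 3.58.1 (R 4.3.3) was used with normexp, an offset of 50 and quantile normalization over all 95 arrays, settings chosen here. Outlier and control spots were left out. A probe was kept if, on 4 of the fitted arrays, it reached 1.1 times the level that 95 percent of the array's 77 negative controls stayed under. Probes of one name were averaged, giving 14332 genes or accessions from 15008 probes, of which 1554 probes carry a symbol. Cortex and hypothalamus were compared with limma's moderated fit and Benjamini-Hochberg adjustment over all genes tested. On 12 of the 95 arrays the normexp fit left the negative controls raised, so a correction from the negative controls was added after the data were seen, as was the fit without hypothalamus replicates 1 and 2.

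Alternatives were an offset of 16, the processed signal minus each array's 75th percentile, the authors' table, normalization over the fitted arrays only, other filters and probe rules, a replicate block, slide as a random block, other estimates of the spread, and each array left out. Genes were named from rows with a symbol only, and rows known by accession alone were left out whatever their difference. Among rows with a symbol, genes named are the 12 largest passing differences and the 3 largest passing interactions in each direction. Also named are up to 4 members of each list with the largest differences. Any measured member of the peptide, neuronal, regional factor, receptor and steroid lists was named too. SLC1A2, EGR1 and FTH1 were named after their values were seen. The lists and members were chosen with earlier results of these data known. On simulated data the 145-day fit over 12257 genes recovered 67% of log2 changes of 1 and 95% of changes of 2, with 7.43% of calls on unchanged genes, and the interaction over 12694 genes recovered 58% and 87%, with 5.23%. The simulated arrays were independent and 200 genes were changed, whereas the real arrays shared slides and 24.9% of genes were called. These rates are thus not the error rates of the real calls.

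By the methods the regions came from the same fetuses, but nothing in the labels says which arrays share one, so p-values measure the spread between arrays taken as independent. Probes are named as in the files, and sequences and genome positions are not used here. Some members of the lists are not reported here by name.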

Additional observations from a re-analysis of the deposited data

Results flagged for a closer look

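Within the groups of 4 arrays, 232 were checked for an array far from the others, and 16 had one, 8 in hypothalamus and 8 in cortex, where chance gives about 1 in 20. In hypothalamus replicate 1 the array apart measured 9.949 for LDHA, 6.355 for CRHR1, 8.786 for GHR, 10.59 for PTGS1, 10.54 for CTSD and 14.94 for FTH1. Hypothalamus replicate 2 measured 11.82 for NPY and 10.16 for IGFBP6. These are the arrays with 132 and 157 outlier spots, and the part of those spots in these values was not tested. In cortex, replicate 1 measured 7.649 for OXT, 6.704 for OXTR and 8.349 for EGR1, replicate 2 measured 13.96 for IGFBP2, replicate 3 measured 9.113 for CD247 and 7.39 for IL10, and replicate 4 measured 9.806 for KRT25 and 6.652 for HSD11B2. Cortex replicate 4 is the array whose negative controls stayed bright after the background correction, and its part in these values was not tested.

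The region difference at 145 days differed from that at 80 days, by the interaction term, for 30 of the 116 genes named, against 6.0% of all genes tested. Some were named for that shift and many for a large 145-day difference, which is itself part of the interaction term. The shares are therefore not comparable, and nothing is read from their difference. Shifts towards hypothalamus were 2.10 for INHBA, 1.65 for PTGFR, 1.35 for LPAR1, 1.21 for GJB1 and 0.87 for NKX6-1. Shifts towards cortex were -1.69 for NPY, -1.66 for SST, -1.38 for PCSK1, -1.81 for CPE, -1.31 for GRM3, -1.65 for CAMK2, -0.91 for GRIN1, -1.35 for HPCAL1, -0.55 for SLC1A2 and -0.57 for ADRB1. They were -1.1 for FOS, -0.83 for JUNB, -1.74 for PTGS2 and -2.92 for PTGDS. Further shifts were -1.32 for CTSB, -1.5 for CTSD, -1.88 for ATP6V0C, -1.84 for ALDOA, -1.27 for ITGB2 and -1.09 for B2M. The others were -1.35 for KRT27, -1.79 for TNMD, -0.72 for NOS3, -2.63 for IGFBP6 and -2.56 for TUBA4A.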

How the results depend on the processing

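Of the 116 genes named, 79 passed at 145 days, and of the 79 only SLC1A2 turned direction under an alternative run, with 1 probe alone (0.11). Of these, 48 passed under every alternative that gave them a value. Among these 48 the filter on the log2 scale left out CRHR1, GNRH1, KRT27, PGR and TNMD. With slide as a random block (estimated correlation 0.74) the number of genes called at 145 days was 1826 in place of 3052, of which 1822 were called in both with the same direction, and 21 of the 79 lost their call: those the report gives with that adjusted p, among them ESR1, KRT25, TAC3 and ADCYAP1. Leaving out 1 array gave 1943 to 3474 calls, with 1943 without cortex replicate 1 and 2007 without cortex replicate 2. For the interaction with age, a fit over all ages gave 1332 calls in place of 762, and leaving out 1 array gave 482 to 853, the lowest without cortex replicate 2 at 145 days. The authors' table called 2958 of 10715 tested, a different set of genes, and 43.8% of these calls were higher in hypothalamus, against 55.2% in the main processing. The other alternatives gave 2372 to 4115 calls at 145 days and 660 to 1070 for the interaction. With the replicate block 2372 and 721 were called. The labels give both regions replicate numbers 1 to 4, but same-numbered arrays deviated together only weakly (correlations 0.04, 0.02, 0.02 and 0.21), so the numbers were not taken as pairs. PMCH, ADRB1, CHRM3, PTGER3, CP, CHI3L1, CTSD, ATP5PD and SLC1A2 did not pass with that block. Each probe on its own, at least 1 probe did not pass for ADCYAP1, CTSD, FCER1G, FOS, IL10, JUN, LDHA, PMCH, PTGER3, PTGS2, SLC1A2 and TXNIP. With background from the negative controls 3065 of 12406 tested were called, 2985 of them shared with the main processing, and no named gene lost its call.

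Some genes that did not pass turned sign. Their differences in the main processing were near 0, except for LHB (-0.43) and IGFBP2 (-0.31). GHRL was -0.0076 and GRIA2 0.033 without hypothalamus replicates 1 and 2. GRIA2 was 0.12 and IGFBP2 0.13 with Agilent's processed signal, and GRIA2 was -0.10 to 0.10 with single arrays left out. PTGDS was -0.39 in the authors' table, -0.035 with slide as a random block and -0.10 to 0.20 with single arrays left out. TTR was -0.014 with the replicate block, -0.26 with slide as a random block, -0.34 without hypothalamus replicates 1 and 2 and -0.87 to 1.48 with single arrays left out. SSTR5 was -0.19 with Agilent's processed signal and -0.014 to 0.11 with single arrays left out. EGR1 was 0.35 with its first probe alone, with the brightest probe and with the filter on the log2 scale. LHB was 0.12 with its second probe alone. The cause was not tested for any of these.

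Differences of dim genes depend on the background correction and the bounds given where a region was not well above background are on the scale of the main processing. Region was confounded with slide and scan day at every age.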
